A study of Mus musculus with 6 samples.

Results

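Binding of OCT4 and NANOG was examined around 7 genes of the formative and primed states, *Otx2*, *Fgf5*, *Pou3f1*, *Zic2*, *Zic5*, *Foxd3* and *Sox4*, in mouse embryonic stem cells (ESCs) sorted by the level of Esrrb. The genes were chosen by name, with earlier results of these data known. Every region bound in at least 1 library within 20 kb of a gene body was taken, with the distance extended to 100 kb for *Otx2* and *Fgf5*. This gave 19 regions within 20 kb and another 5 in the extension, all upstream of *Otx2*, so that 24 of the 23767 regions of the series belong to these genes. *Zic2* and *Zic5* are neighbours that share regions, and the 7 genes therefore form 6 loci.

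All cells were the E14Tg2a ESC line Esrrb-2a-GFPd-IBIH (E-GFPd1), in which both *Esrrb* alleles carry a 2a-linked destabilised GFP, kept in serum (FCS) and LIF. Sorting took the brightest 10% of cells as Esrrb-GFP high, the 15% directly above the negative gate as Esrrb-GFP medium, and the cells without GFP as Esrrb-GFP negative. The labels of the last fraction name it negative in the sample titles and low in the source field, and it is called negative here. Chromatin was precipitated with antibodies against OCT4 or NANOG, with 1 library for each factor and fraction, each made from 3 pooled immunoprecipitations of this 1 line, so there is no spread between replicates and no p-value was computed. The lists hold 12449, 14464 and 10369 OCT4 regions and 9425, 4729 and 286 NANOG regions in high, medium and negative cells. They give positions without scores or read counts, so the depth is unknown, and positions are given on mm9, counted from 1. A region was left out of a fraction's list when its signal there fell below 50% of its highest, and "not bound" therefore means not listed, which weaker binding can also give. The lists say where a factor was found and not how strongly a gene was expressed, and transcripts were not analysed here.

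Cultures of ESCs in serum and LIF hold cells in a naive state, in which Esrrb and Nanog are high. They also hold cells closer to differentiation, in which these factors are low while OCT4 is still made. The paper reports that sorted high and medium cells turned into each other, whereas negative cells hardly regained Esrrb. On the way to the egg cylinder, cells pass through a formative state and then a primed state, the latter captured in culture as epiblast stem cells. OTX2 is a homeodomain factor that partners OCT4 at new sites in the formative state, FGF5 is a secreted growth factor long used as a mark of the post-implantation epiblast, and POU3F1 (OCT6) is a POU factor related to OCT4. ZIC2 and ZIC5 are zinc finger factors, FOXD3 is a forkhead factor that ESCs and epiblast both need, and SOX4 is an SRY-related factor. OCT4 reads the octamer ATGCAAAT, often next to a SOX site in a composite Oct-Sox motif.

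The regions on which the results turn are shown as mm9 sequence read from the plus strand of the assembly, so that they run against transcription for *Otx2*, *Zic5* and *Sox4*. They were chosen to show the patterns of binding described with each gene. Capitals mark an octamer, exact or with 1 mismatch, in either direction, except that only exact octamers are marked in the *Otx2* intron, and that the capitals of *Fgf5* mark the OTX2 motif TAATCC and those of *Zic5* a KLF motif, GGGTGTGG. A sequence without capitals held none of the motifs searched inside the stretch shown. For regions wider than 300 bp the central 300 bp are given.
Fgf5 intron, bound in all 6 libraries, chr5:98684822-98685121: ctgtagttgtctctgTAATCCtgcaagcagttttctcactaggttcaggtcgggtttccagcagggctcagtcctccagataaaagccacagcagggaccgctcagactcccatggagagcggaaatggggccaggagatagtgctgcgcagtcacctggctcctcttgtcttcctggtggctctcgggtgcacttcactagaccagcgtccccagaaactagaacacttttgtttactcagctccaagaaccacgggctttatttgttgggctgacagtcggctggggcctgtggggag
Pou3f1 upstream, OCT4 in medium and negative cells, chr4:124327852-124327971: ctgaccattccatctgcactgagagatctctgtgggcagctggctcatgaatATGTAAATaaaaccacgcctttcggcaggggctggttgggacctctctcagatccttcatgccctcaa
Pou3f1 upstream, OCT4 in medium and negative cells, nearer to the gene, chr4:124330812-124330991: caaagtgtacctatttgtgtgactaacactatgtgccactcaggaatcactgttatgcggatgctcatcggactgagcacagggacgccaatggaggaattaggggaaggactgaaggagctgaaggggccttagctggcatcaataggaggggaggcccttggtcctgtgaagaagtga
Zic5 upstream, both factors in high and medium cells, chr14:122867292-122867411: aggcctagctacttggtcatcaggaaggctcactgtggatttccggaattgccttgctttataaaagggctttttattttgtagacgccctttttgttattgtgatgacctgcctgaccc
Zic5 upstream, OCT4 in medium and NANOG in high cells, chr14:122868012-122868131: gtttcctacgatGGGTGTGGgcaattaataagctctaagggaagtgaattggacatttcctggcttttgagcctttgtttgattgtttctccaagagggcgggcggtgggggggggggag
Foxd3 upstream, OCT4 in all fractions and NANOG in high cells, chr4:99308622-99308921: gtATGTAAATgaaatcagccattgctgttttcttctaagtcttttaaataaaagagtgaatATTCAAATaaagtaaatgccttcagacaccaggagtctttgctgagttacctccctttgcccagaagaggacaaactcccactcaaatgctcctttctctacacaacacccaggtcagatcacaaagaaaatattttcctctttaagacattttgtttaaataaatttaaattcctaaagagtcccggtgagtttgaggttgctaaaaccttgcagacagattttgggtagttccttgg
Otx2 intron, an OCT4 and a NANOG region with the gap between them, chr14:49282612-49282771: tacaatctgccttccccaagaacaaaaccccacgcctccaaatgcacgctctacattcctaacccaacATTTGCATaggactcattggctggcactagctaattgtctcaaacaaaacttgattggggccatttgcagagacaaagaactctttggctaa
Otx2 far upstream, OCT4 in all fractions, chr14:49320672-49320911: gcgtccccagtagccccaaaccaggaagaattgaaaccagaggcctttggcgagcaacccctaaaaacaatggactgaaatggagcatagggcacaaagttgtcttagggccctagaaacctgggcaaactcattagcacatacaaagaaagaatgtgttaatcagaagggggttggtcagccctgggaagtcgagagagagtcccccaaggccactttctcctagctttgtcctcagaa
Sox4 upstream, OCT4 in all fractions, beyond 20 kb, chr13:29080732-29080891: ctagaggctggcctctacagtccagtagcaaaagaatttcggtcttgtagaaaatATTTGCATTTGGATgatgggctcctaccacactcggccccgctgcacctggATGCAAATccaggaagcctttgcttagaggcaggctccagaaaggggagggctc

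Within 20 kb of the 7 genes, OCT4 was bound at 4 regions in high, 11 in medium and 8 in negative cells. NANOG was bound at 9, 3 and 1. OCT4 regions near these genes were thus fewest in high cells, while the OCT4 list of the whole series was shortest in negative cells (10369 regions). The order of the NANOG counts was that of the whole lists (9425, 4729 and 286). At least 1 region lay near 6 of the 7 genes, against 46.5% of all protein-coding genes. None of the 19 regions covered the start of a member gene. In introns lay 4 of them, and the centres of the others lay between 2452 bp and 19819 bp from a gene start. Their widths ran from 40 bp to 600 bp with a median of 80 bp, which is also the median of all regions.

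Of the 14 regions bound by OCT4 in any fraction, 10 were not bound by OCT4 in high cells (71.4%, 95% Wilson interval 45.4 to 88.3), while over all regions this share was 31.9%. The share of 10 in 14 was added after the data had been seen, so its interval is not that of a result planned beforehand. Of the 8 OCT4 regions of negative cells, 6 were not bound in high cells (75.0%, 40.9 to 92.9), beside 34.1% over all regions. The intervals cover counting error over regions only, and regions of 1 locus share their surroundings and are not independent. These 10 late OCT4 regions, bound by OCT4 in medium or negative but not in high cells, came from 4 loci, 4 from *Zic2* and *Zic5*, 3 from *Pou3f1*, 2 from *Foxd3* and 1 from *Otx2*. The fractions are not a time course, so late is only a label for this pattern. It does not mean that OCT4 was absent from high cells. The paper reports, from average profiles, that OCT4 regions called in negative but not high cells had detectable signal in high cells already. Whether this holds at each late region here was not tested, because the lists give no signal. Bound by OCT4 in both medium and negative but not in high cells were 3 of the 19 regions, beside 9.93% of all regions. Another 3 were bound by OCT4 in negative cells alone, beside 4.93% of all regions, and 4 in medium cells alone, beside 9.72%. The 3 bound in negative cells alone were each 40 bp wide, the narrowest width in the lists, which 36.3% of all such regions and 21.0% of regions of any kind had. Among regions no narrower than the median, 2 of 4 OCT4 regions of negative cells were not bound in high cells, beside 24.8% of such regions in the series. NANOG was bound in any fraction at 1 of the 10 late OCT4 regions (10.0%), beside 8.01% over all such regions.

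**Figure D1:**
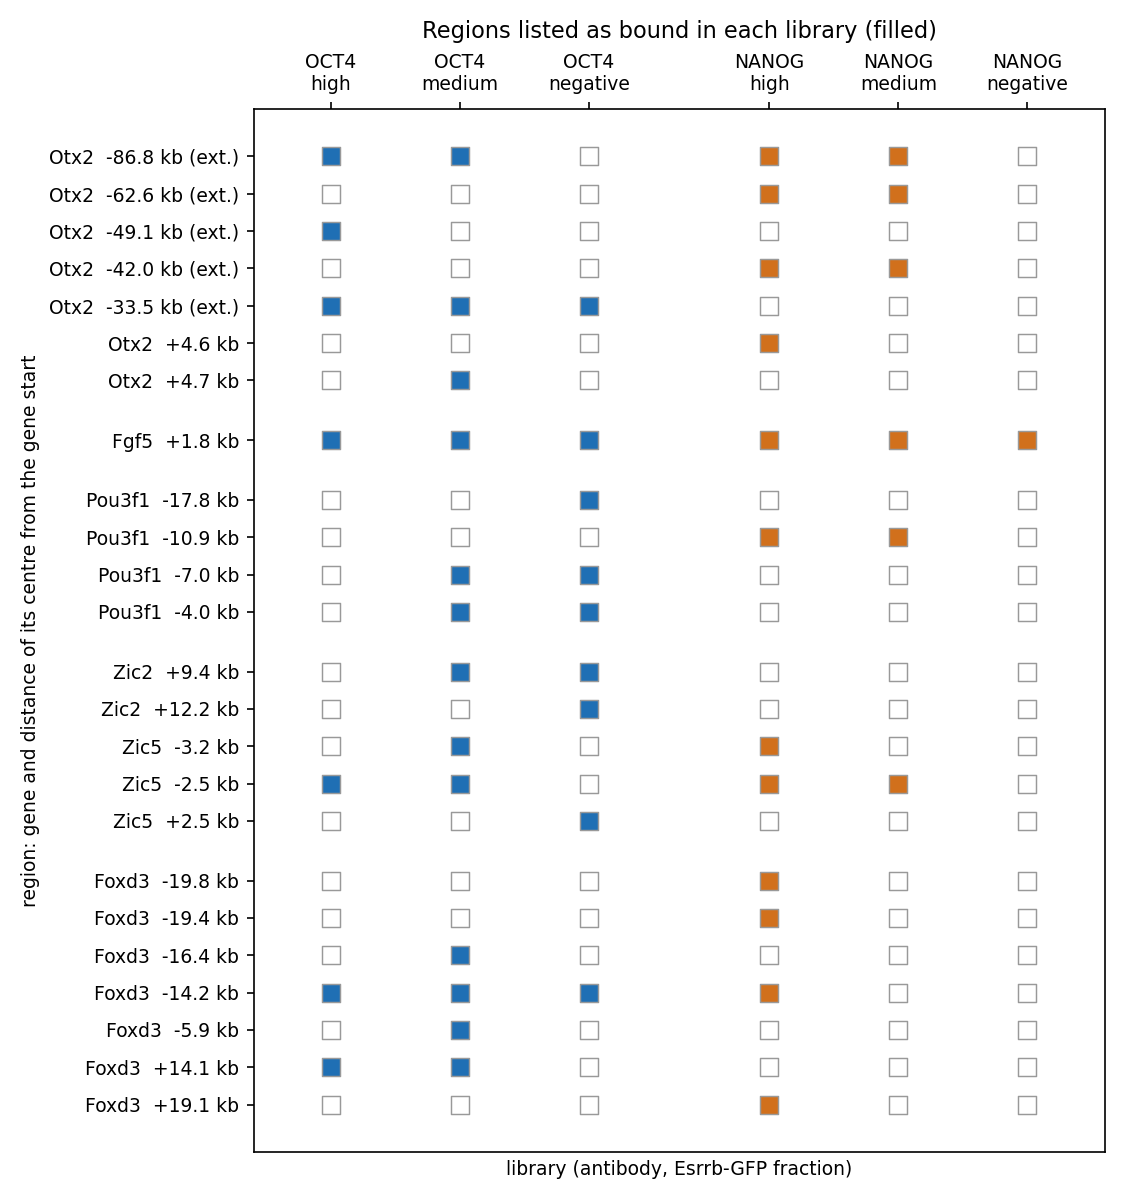
Each row is a region near a member gene, named by the gene and the distance in kb of its centre from the gene start (negative is upstream, "ext." is the 100 kb extension), and each column is a library; filled squares are regions listed as bound, blue for OCT4 and orange for NANOG. The OCT4 high column holds 7 filled squares and the NANOG negative column 1, at *Fgf5*.

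*Fgf5* (ENSMUSG00000029337, plus strand of chromosome 5, 98683203 to 98706049) had a single region within 100 kb, and this region was bound in all 6 libraries. It spans 360 bp from 98684792 to 98685151 in an intron, with its centre 1768 bp after the gene start. Only 43 regions of the series, 0.181%, were in all 6 lists, and their median width was 120 bp. Of them, 5 were at least 360 bp wide (11.6%), as were 3.09% of all regions. It is the only one of the 24 regions at which NANOG was bound in negative cells. No octamer and no Oct-Sox motif was found within 100 bp of its centre. Of the 43 regions of this kind, 4 had one (9.30%, 3.68 to 21.6), beside 15.1% of all regions. One TAATCC, the core of the site that OTX2 reads, lies at 98684837 to 98684842 near the edge of the region.

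At *Pou3f1* (ENSMUSG00000078236, plus strand of chromosome 4, 124334896 to 124337899), which codes for a close relative of OCT4, OCT4 was not bound in high cells at any region within 20 kb and was bound at 3 in negative cells. All 4 regions lay upstream. The regions at 124327852 to 124327971 and 124330812 to 124330991, 6985 bp and 3995 bp before the start, had OCT4 in the medium and the negative library. A region of 40 bp at 124317092 to 124317131, 17785 bp before the start, was bound by OCT4 in negative cells alone. A further region of 40 bp, 124323952 to 124323991, was in the NANOG lists of high and medium cells and in no OCT4 list. The factors were therefore on separate regions here, NANOG in high and medium cells and OCT4 in medium or negative cells.

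Of the protein-coding genes with 3 or more OCT4 regions within 20 kb, 0.597% (12 of 2011, *Pou3f1* among them) had none bound in high cells and all bound in negative cells, a count made after the pattern at *Pou3f1* had been seen. Over 100 kb, *Pou3f1* had 6 OCT4 regions, of which 0 were bound in high, 5 in medium and all 6 in negative cells. Among genes with 6 or more in that distance, 0.122% (3 of 2460) had none bound in high and all bound in negative cells. That count set no condition on medium cells. The 3 regions between 20 kb and 100 kb lay closer to other genes. Those at 124272272 to 124272391 and 124308892 to 124309051 were nearest to *3100002H09Rik*, and that at 124386172 to 124386231 lay 317 bp from *Fhl3*. The region 6985 bp upstream held 1 octamer with a mismatch, ATGTAAAT, at 124327904 to 124327911, and no exact octamer was found at any of the 4 regions within 20 kb.

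*Zic5* (ENSMUSG00000041703, minus strand of chromosome 14, 122856017 to 122864899) and *Zic2* (ENSMUSG00000061524, plus strand, 122874604 to 122879074) are transcribed away from each other, and 5 regions lay within 20 kb of them. OCT4 was bound at 1 of these in high, 3 in medium and 3 in negative cells. NANOG was bound at 2, 1 and 0. The locus held both a region bound by OCT4 in high cells and late OCT4 regions. Upstream of *Zic5*, the region from 122867292 to 122867411, 2452 bp before its start, held both factors in high and in medium cells and neither in negative cells. This is the pattern called Class I, co-binding in high cells lost for both factors in negative cells.

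The next region, 122868012 to 122868131, lay 600 bp away between the same genes and had OCT4 in the medium and NANOG in the high library, so that each factor was in a different fraction. The other 3 regions of the locus were listed for OCT4 only, and not in the list of high cells. The region at 122883952 to 122884011, downstream of *Zic2*, was bound in medium and negative cells. Those at 122862332 to 122862371, in an intron of *Zic5*, and at 122886792 to 122886831, downstream of *Zic2* and 2977 bp from *Gm10837*, were bound in negative cells alone. No octamer, exact or not, was found within 100 bp of the centre at 4 of the 5 regions, and the intronic one had an octamer with 1 mismatch.

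*Foxd3* (ENSMUSG00000067261, plus strand of chromosome 4, 99322990 to 99325362) had 7 regions within 20 kb, as many as 1.63% of protein-coding genes had or exceeded. OCT4 was bound at 2 of them in high, 4 in medium and 1 in negative cells. NANOG was bound at 4 in high cells and at 0 in medium and negative cells. *Foxd3* was thus the locus with the most NANOG regions of high cells, and none was bound in medium cells. Of the genes with 4 or more NANOG regions of high cells within 20 kb, 4.40% (11 of 250) likewise had none of them bound in medium cells. Within 100 kb the counts for *Foxd3* were 6 NANOG regions in high cells and 0 in medium cells.

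Co-binding at *Foxd3* was found at 1 region, 99308612 to 99308931, 14219 bp upstream of the start. OCT4 was bound there in every fraction and NANOG in high cells only, which is Class II, co-binding in high cells where OCT4 alone stays in negative cells. The other 3 NANOG regions, at 99303132 to 99303211, 99303492 to 99303591 and 99342052 to 99342111, had no OCT4 in any fraction. The broadest region of the set, 99316812 to 99317411, spans 600 bp with its centre 5879 bp upstream of the start and was bound by OCT4 in medium cells alone. Regions of 600 bp or more made up 0.311% of all regions (74). Of the 2311 regions bound by OCT4 in medium cells alone, with or without NANOG, 5 reached that width (0.216%).

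OCT4 was also bound in medium cells alone at 99306532 to 99306671, and in high and medium cells downstream at 99337032 to 99337071. The limit of 20 kb cut through a group of regions upstream of *Foxd3*. The region at 99303132 to 99303211 lay 19779 bp from the gene body and was counted. Its neighbour 160 bp away, at 99302852 to 99302971, lay at 20019 bp and was not, although OCT4 was listed there in high and medium cells and NANOG in high cells (Class I) and it held the 1-mismatch ESRRB motif TCAAGGCCA at 99302926 to 99302934.

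**Figure D2:**
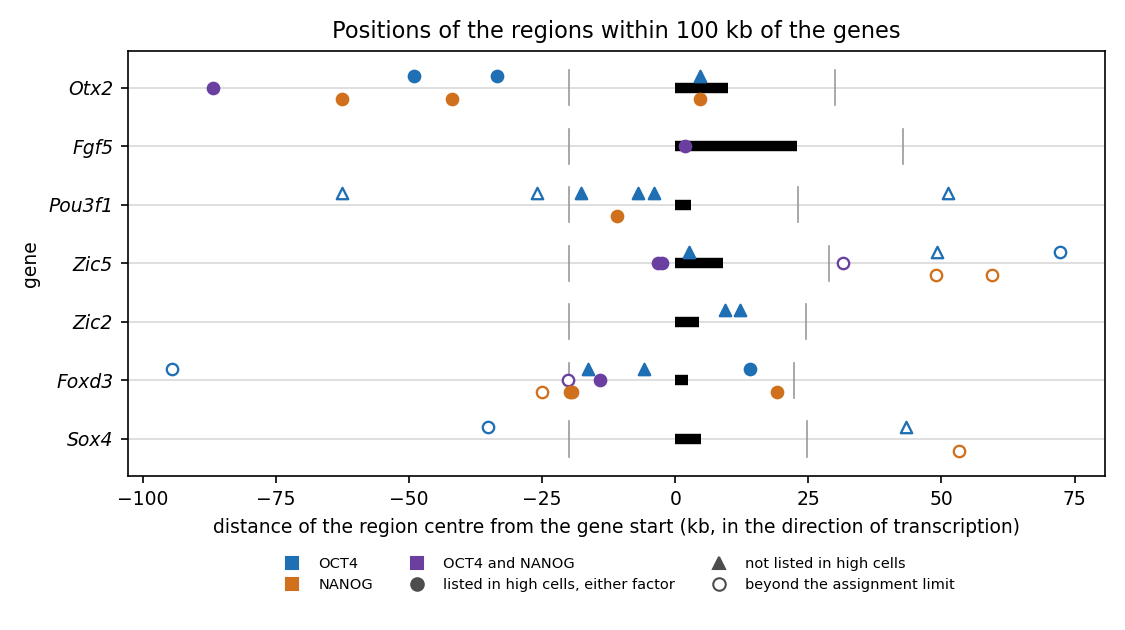
Distance in kb of each region centre from the start of the gene it was assigned to, in the direction of transcription (negative is upstream), for every region within 100 kb; black bars are the gene bodies, grey ticks the 20 kb limits, colours the factor, triangles regions with neither factor in high cells and open symbols regions outside the rule. At *Pou3f1* the 6 OCT4 regions are triangles, and at *Sox4* no region lies inside the limits.

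At *Otx2* (ENSMUSG00000021848, minus strand of chromosome 14, 49277354 to 49287319), OCT4 was not bound in high or negative cells within 20 kb. The gene had 2 regions, both in an intron and 20 bp apart. The region at 49282612 to 49282691 was bound by OCT4 in medium cells alone and held an exact octamer on the minus strand at 49282680 to 49282687. The region at 49282712 to 49282771 was bound by NANOG in high cells alone, and the same octamer lies within 100 bp of its centre. Joined, the pair would count as 1 region with NANOG in high and OCT4 in medium cells, as at the region upstream of *Zic5*.

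Between 20 kb and 100 kb upstream of *Otx2*, 5 further regions were found, at which OCT4 was bound 3 times in high, 2 times in medium and 1 time in negative cells. The region at 49320672 to 49320911, 33472 bp before the start, was bound by OCT4 in all 3 fractions without NANOG. At the most distant region, 49373872 to 49374351, 86792 bp before the start and 480 bp wide, both factors were listed in high and in medium cells and neither in negative cells (Class I). NANOG without OCT4 was found, in high and in medium cells, at 49329252 to 49329311 and 49349872 to 49349951, and the window of the latter held an Oct-Sox match. OCT4 in high cells alone was found at 49336372 to 49336431. Counted over 100 kb, *Otx2* had 3 OCT4 regions in high cells, 3 in medium cells and 1 in negative cells. Its NANOG regions numbered 4, 3 and 0.

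No region lay within 20 kb of *Sox4* (ENSMUSG00000076431, minus strand of chromosome 13, 29040788 to 29045582), which codes for an SRY-related factor. The nearest, at 29080732 to 29080891 and 35150 bp from the gene body, was bound by OCT4 in all 3 fractions and held exact octamers at 29080787 to 29080794 and 29080838 to 29080845, on opposite strands. Downstream, OCT4 was bound in medium and negative cells at 29002092 to 29002211 and NANOG in high cells at 28992272 to 28992311. These 3 regions lay beyond the limit and entered no count of the 19.

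**Figure D3:**
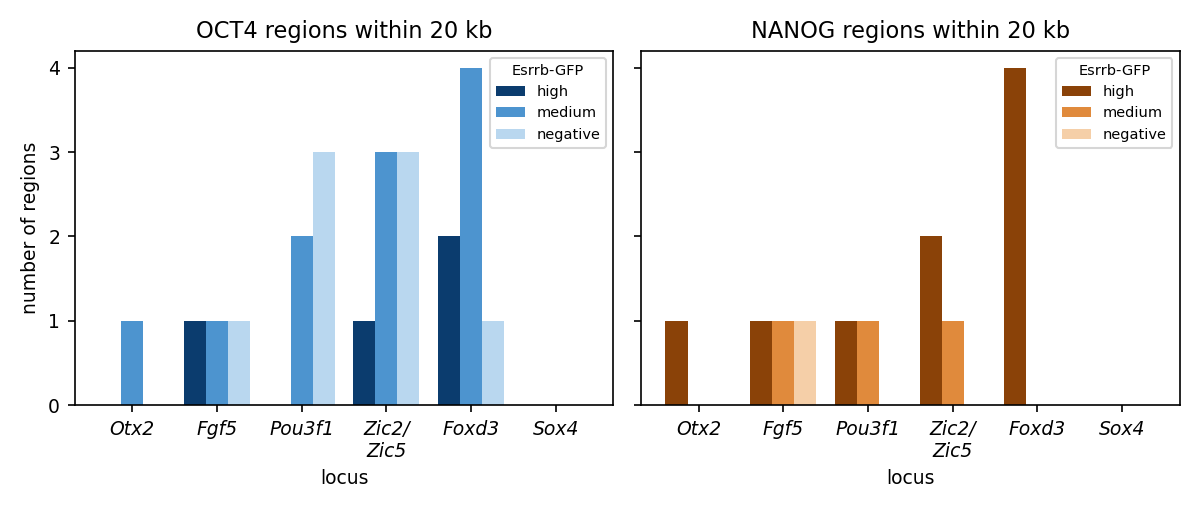
Number of regions within 20 kb of each locus (x axis) listed as bound by OCT4 (left, blue) and NANOG (right, orange) in high, medium and negative cells, dark to light; each bar is 1 library. OCT4 counts are 0 in high and 3 in negative cells at *Pou3f1* and 1 and 3 at *Zic2* and *Zic5*, while NANOG counts reach 4 in high and 0 in medium cells at *Foxd3*.

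Regions already bound by OCT4 in high cells were few, 4 in all, and each of them was bound in medium cells. In negative cells 2 of the 4 were still bound (interval 15.0% to 85.0%), beside 54.9% over all OCT4 regions of high cells, and the interval holds the share of the series. Of the 9 NANOG regions of high cells, 3 were bound in medium cells (33.3%, 12.1 to 64.6, against 47.7% over all regions) and 1 in negative cells (11.1%, 1.99 to 43.5, against 2.51%). The former was 3 of 5 without *Foxd3*, 2 of 4 within 5 kb and 6 of 12 with the extension for *Otx2* and *Fgf5*, so the side of the series on which it falls depends on the regions taken. The latter rests on *Fgf5* alone. NANOG without OCT4 in any fraction was found at 5 of the 19 regions, beside 23.0% of all regions. Both factors were bound in high cells at 3 regions, of which 1 was Class I (55.3% of co-bound regions in the series), 1 Class II (42.6%) and 1, at *Fgf5*, neither.

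Another 19 genes of the formative and primed states, among them *Dnmt3a*, *Dnmt3b*, *Lef1*, *Nodal*, *Eomes* and *T*, were examined in the same way. Near them lay 47 regions, with OCT4 bound at 21, 32 and 20 of them in high, medium and negative cells, in that order, while NANOG was bound at 24, 10 and 1. Of their 36 OCT4 regions, 15 were not bound in high cells (41.7%, 27.1 to 57.8), beside 31.9% over all regions. Of the 21 OCT4 regions of high cells, 12 were kept in negative cells (57.1%, 36.5 to 75.5), beside 54.9% over all regions. Both intervals hold the share of the series. Most regions lay at *Lef1*, a mediator of WNT signalling, and at *Grhl2*, a factor of the epithelial program, with 7 each, and none at *Tcf15*, *Fgf8* and *Mixl1*. At *Lef1* OCT4 was bound at 5, 6 and 3 regions in high, medium and negative cells, so the order seen at *Pou3f1* did not extend to it. Of the 15 genes with an OCT4 region within 20 kb, 4 had none bound in high cells. The same share over all protein-coding genes was not counted, so it is unknown whether 4 of 15 is unusual. A gene with a single OCT4 region has this pattern whenever that region is not bound in high cells, as were 31.9% of all OCT4 regions. These were *Gsc*, with 2 regions of medium cells alone, *Eomes*, with 1 region of medium and negative cells, and *Cdh2* and *Krt18*, each with 1 region of negative cells alone.

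Genes of 12 naive factors, such as *Esrrb*, *Klf2* and *Tfcp2l1*, had 50 regions, with OCT4 at 27, 34 and 12 in high, medium and negative cells. Here 13 of 40 OCT4 regions were not bound in high cells (32.5%, 20.1 to 48.0), near the share of all regions (31.9%). Kept in negative cells were 7 of 27 OCT4 regions of high cells (25.9%, 13.2 to 44.7), beside 54.9% over all regions. Of their 14 co-bound regions, 10 were Class I and 4 Class II, while the other formative and primed genes had 4 and 7 of 11. Over the series these shares were 55.3% and 42.6%. The Class I intervals of the naive factor genes (45.4 to 88.3) and of the other formative and primed genes (15.2 to 64.6) both hold 55.3%. At *Pou5f1* and *Sox2*, the genes of OCT4 and SOX2, 7 of 8 OCT4 regions of high cells were kept (87.5%, 52.9 to 97.8). This interval holds the 54.9% of all regions. These lists differ in gene number and in regions per gene, and no test of the differences between them was made.

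**Figure D4:**
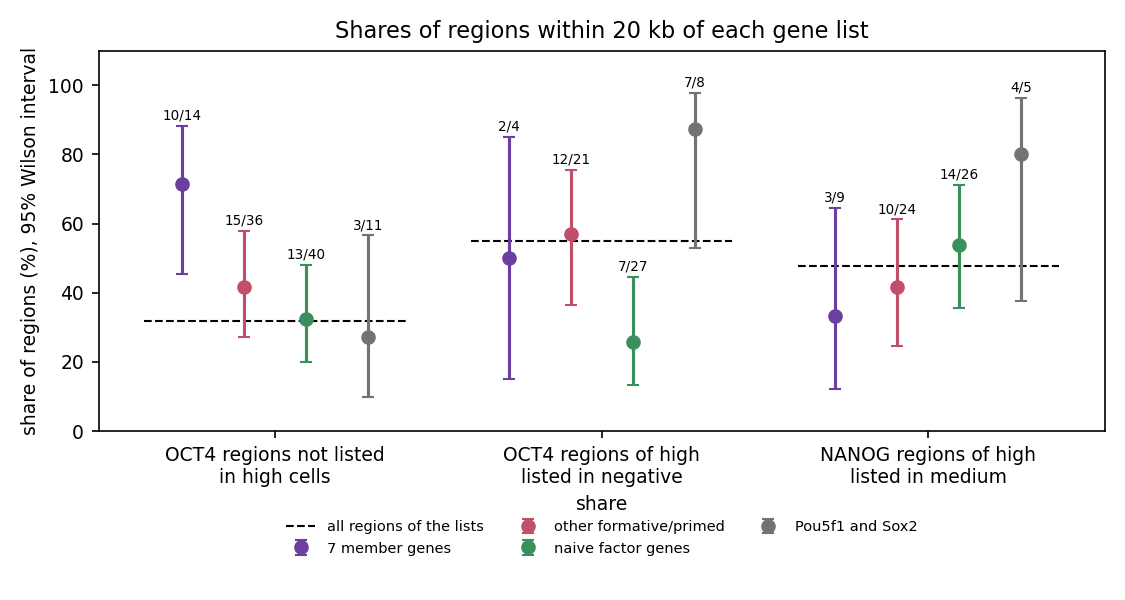
Shares of regions in % (y axis) with 95% Wilson intervals (counting error over regions only) for the member genes and 3 comparison lists within 20 kb; numbers above the bars are regions counted over regions in all, and dashed lines give the share over all regions of the series. The member genes stand at 10 of 14 for OCT4 regions not listed in high cells, above the 31.9% of all regions, and at 2 of 4 and 3 of 9 for the kept shares. The share of OCT4 regions not listed in high cells was added after the data had been seen.

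Motifs were searched on both strands within 100 bp of each centre. An exact octamer was found at 2 of the 19 regions (10.5%, 2.94 to 31.4), the neighbouring pair in the *Otx2* intron that share it, beside 7.88% of all regions. Only 1 of this pair was an OCT4 region. Among the 14 OCT4 regions the share was 7.14% (1.27 to 31.5), beside 9.48% of all OCT4 regions. With 1 mismatch allowed, 7 of the 19 regions held an octamer (36.8%, 19.1 to 59.0), beside 39.0% of all. No Oct-Sox motif was found with up to 2 mismatches in its 15 letters, which include the octamer (0 of 19, interval 0 to 16.8, against 9.50%), no ESRRB motif TCAAGGTCA with up to 1 mismatch (11.2% of all regions) and no TAATCC (7.98%). In the series, OCT4 regions of medium and negative cells that were not bound in high cells held an octamer or Oct-Sox motif as often as those of high cells, at 19.3% (17.7 to 20.9) and 19.5% (18.8 to 20.2).

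The motif GGGNGTGG, a loose form of the site that KLF factors read, was found at 6 of the 19 regions (31.6%, 15.4 to 54.0), beside 11.9% of all regions. Limited to GGGTGTGG and GGGCGTGG, the forms closest to the KLF site, it was found at 2 regions (10.5%, 2.94 to 31.4), beside 4.19%. One of these was the region upstream of *Zic5* with OCT4 in medium and NANOG in high cells, where it lies at 122868024 to 122868031. The GC content within 100 bp of the centre had a median of 50.2% at the 19 regions (37.3% to 62.7%), against 48.3% over all regions. A match here describes letters in a window and does not show a bound site.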

How the data were processed

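ChIP-Seq of OCT4 and NANOG in 3 sorted fractions of 1 ESC line gave 6 libraries, grouped by the antibody and fraction in their labels. The authors aligned reads (Bowtie in the submitters' processing notes) in GeneProf and used SISSRs to call peaks. Peaks of any dataset that overlapped were joined, and a region was dropped from a fraction that had under 50% of its highest depth-normalised signal. The deposited lists hold chromosome, start and end only, on mm9; all ends lay within that assembly. Starts were converted to count from 1. Genes came from GENCODE on the same assembly (37310 genes), taking the longest protein-coding record of a symbol, and all sequence from that genome. Distances are to gene bodies.

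The member genes and comparison lists were chosen with earlier results of these data known. All 7 members were named with all their regions, and of the 19 other formative and primed genes those with most and with no regions. *Dnmt3a*, *Dnmt3b*, *Nodal*, *Eomes*, *T*, *Gsc*, *Cdh2* and *Krt18* were named in addition, after their values had been seen.

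Regions were counted and shares given with 95% Wilson intervals, without tests. Alternatives were other distances (5, 50 and 100 kb), merging within 500 bp, a minimum width, the closest gene only, each locus left out, and other motif windows and mismatches. Python 3.11.15, numpy 2.4.6 and matplotlib 3.10.9 were used. The functions were tested on simulated lists of 500 regions, where 27 of 27 known answers were recovered.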

Additional observations from a re-analysis of the deposited data

How the results depend on the processing

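No paired analysis was possible because each factor and fraction has 1 library. The number of regions near the 7 genes followed the distance, with 8 at 5 kb, 32 at 50 kb and 38 at 100 kb, and was 11 for regions no narrower than the median and 12 without *Foxd3*. Class I regions numbered 3 at 50 kb, 4 at 100 kb, 2 when regions within 500 bp were merged and 0 without *Zic2* and *Zic5*. With the extension for *Otx2* and *Fgf5* there were 2. The extension belongs to the rule that chose the regions, and only its use as an alternative here was added after seeing the data. Class II regions numbered 0 at 5 kb and 0 without *Foxd3*. The other formative and primed genes had 104 regions at 100 kb. Except for merging, these changes come from how many regions each setting takes in. Merging left 17 regions. It joined the Class I region at 99302852 to 99302971, just beyond 20 kb of *Foxd3*, to its counted neighbours. The shares recomputed under these alternatives were those of OCT4 regions kept, OCT4 regions not bound in high cells (of all and of negative cells), NANOG regions kept in medium cells, and octamer or Oct-Sox matches. Each stayed within its interval, but the intervals are wide and the alternatives share regions, so this says little about stability. OCT4 regions kept in negative cells ran from 33.3% without *Fgf5* to 66.7% without *Zic2* and *Zic5*. NANOG regions kept in medium cells ran from 25.0% without *Fgf5* to 60.0% without *Foxd3*. Looser or narrower motifs moved outside their intervals, with the octamer rising from 10.5% to 36.8% with 1 mismatch and the KLF motif falling from 31.6% to 10.5% in its narrower form. The share of OCT4 regions not bound in high cells, a result added after the data had been seen, ran from 8 of 10 without *Foxd3* down to 55.6% at 100 kb, above the 31.9% of all regions in each. The share of OCT4 regions of negative cells not bound in high cells ran from 2 of 4 for the wide regions to 85.7% without *Fgf5* or without *Foxd3*, and was 3 of 5 without *Pou3f1* or without *Zic2* and *Zic5*. The octamer or Oct-Sox share was 5.26% within 50 bp and 15.8% within 250 bp of the centre, beside 11.1% and 18.8% of all regions. The 1-mismatch octamer, the narrower KLF motif and the counts over all genes were also added after the data had been seen. Depth is unknown, so regions missed for lack of reads cannot be counted.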

Other observations

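A late OCT4 region lay directly beside a NANOG region of high cells at 2 places within 100 kb of the genes. In the *Otx2* intron the gap between the regions was 20 bp. Downstream of *Zic5*, nearest to *Clybl*, the OCT4 region from 122815632 to 122815771 was bound in medium and negative cells, and the NANOG region from 122815812 to 122815911, 40 bp away, in high cells alone. Over the series, 1.54% (90 of 5843, Wilson interval 1.25 to 1.89) of the OCT4 regions not bound in high cells had a NANOG region of high cells without OCT4 within 100 bp, and 2.41% (300 of 12449, 2.15 to 2.69) of the OCT4 regions of high cells did. The 2 of 15 late OCT4 regions near the member genes (13.3%, 3.74 to 37.9) were noticed in the data and then counted, and no test of them was made.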
